A study of Mus musculus with 2 samples.

Results

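The genes described here encode the nuclear arm of the Hippo pathway and its last kinases: Yap1 (YAP), Wwtr1 (TAZ), Tead1, Tead2, Tead3, Tead4, Vgll3, Vgll4, Lats1 and Lats2. Their chromatin accessibility was compared between 2 ATAC-seq libraries, an assay in which the transposase Tn5 cuts and tags open DNA. The control library came from an untreated CD1 mouse and the stretched library from a CD1 mouse whose back skin had been expanded by mechanical force, at an age and for a duration that the labels do not state. Each library was made from 10000 sorted basal cells of the interfollicular epidermis, positive for ITGA6 (an integrin subunit that anchors basal cells) and negative for CD34 (a hair follicle stem cell marker). CD1 is an outbred stock, so the 2 animals may also differ in genotype, and with 1 mouse per group treatment and animal cannot be told apart. A merged region with at least 20 counts summed over both libraries belonged to the protein-coding gene (RefSeq, GRCm38) whose span lay nearest, within 50 kb, the shorter gene winning ties. By this rule 104 of 94857 regions belonged to 9 of the 10 genes, and Tead2 had none.

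In the Hippo pathway, LATS kinases phosphorylate YAP and TAZ, which are then kept in the cytoplasm or degraded. Unphosphorylated YAP and TAZ enter the nucleus and activate transcription through TEAD proteins, which bind DNA, while VGLL proteins occupy the same TEAD surface. In epidermis, YAP and TAZ respond to tension and cell attachment and are known for promoting the proliferation of basal cells.

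The start sites of 5 genes are shown because each lay inside a region with a listed peak in both libraries and holds the core letters bound by TEAD proteins, the partners of YAP and TAZ. Each sequence is the 250 bases before the annotated start (RefSeq, GRCm38.p6), written along the gene, with GGAATG, its reverse complement CATTCC and the CCAAT box in capitals. The Yap1 window is chr9:8004597-8004846, the Wwtr1 window chr3:57575911-57576160, the Tead3 window chr17:28350806-28351055 and the Vgll4 window chr6:114969204-114969453, all on the minus strand. The Vgll3 window is chr16:65814939-65815188 on the plus strand.
Yap1: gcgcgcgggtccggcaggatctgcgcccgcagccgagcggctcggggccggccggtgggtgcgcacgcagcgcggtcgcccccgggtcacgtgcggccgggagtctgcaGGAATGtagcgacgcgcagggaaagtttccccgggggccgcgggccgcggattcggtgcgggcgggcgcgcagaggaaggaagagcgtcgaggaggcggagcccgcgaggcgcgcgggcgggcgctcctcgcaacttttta
Wwtr1: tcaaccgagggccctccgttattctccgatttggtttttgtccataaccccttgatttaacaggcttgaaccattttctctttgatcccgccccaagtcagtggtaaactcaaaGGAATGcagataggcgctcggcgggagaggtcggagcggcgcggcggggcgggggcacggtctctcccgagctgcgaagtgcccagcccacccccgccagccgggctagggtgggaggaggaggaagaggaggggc
Tead3: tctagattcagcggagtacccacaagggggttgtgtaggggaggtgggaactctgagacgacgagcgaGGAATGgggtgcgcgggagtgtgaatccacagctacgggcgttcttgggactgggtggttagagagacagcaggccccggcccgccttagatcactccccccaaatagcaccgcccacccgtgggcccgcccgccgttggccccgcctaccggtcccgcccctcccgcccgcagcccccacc
Vgll3: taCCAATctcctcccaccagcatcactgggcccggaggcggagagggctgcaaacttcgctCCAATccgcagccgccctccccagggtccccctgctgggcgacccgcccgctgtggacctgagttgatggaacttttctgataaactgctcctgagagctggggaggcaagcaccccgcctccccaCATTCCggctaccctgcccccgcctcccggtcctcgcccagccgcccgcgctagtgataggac
Vgll4: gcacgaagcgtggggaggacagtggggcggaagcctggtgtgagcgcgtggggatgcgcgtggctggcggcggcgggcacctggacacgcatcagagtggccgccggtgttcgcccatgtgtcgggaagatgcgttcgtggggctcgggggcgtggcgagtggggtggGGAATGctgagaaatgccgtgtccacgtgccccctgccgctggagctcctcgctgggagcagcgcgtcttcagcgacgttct
In Yap1 the GGAATG lies 141 to 136 bases before the start, and in Wwtr1 136 to 131 bases before it. Tead3 has it 182 to 177 bases and Vgll4 82 to 77 bases before the start, and Vgll3 has CATTCC 63 to 58 bases before it.

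The promoter table held 8 of the 10 genes, all but Tead1 and Tead4, with 12 windows, since Wwtr1, Lats2 and Tead3 have more than 1 start. GGAATG, searched on both strands, occurred in 7 of the 12 windows and in 5 of the 8 genes, against 11.7% of 21262 windows and 13.5% of 17491 genes in the whole table. The 7 windows are not separate observations, because the 2 Wwtr1 windows overlap and share 1 match. A second Tead3 window held 2 further matches. The AP-1 site TGANTCA, bound by JUN and FOS proteins, occurred in none of the 12 windows and in 6.13% of all windows. The CCAAT box occurred, 2 times, in the window of Vgll3 alone, against 35.4% of all windows. Lats1, Lats2 and Tead2 held none of these letters. The windows held from 4 CpG dinucleotides, in 1 of the 2 Lats2 windows, and 7 in Tead2 to 44 in Yap1, against a median of 10 over all windows. A match describes letters only.

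The control library held 8820178 counts and the stretched library 11803785, and 10 regions of over 10000 counts, none of them a region of these genes, held 34.5% and 48.9% of them. Folds are stretched over control after TMM scaling, with an exact Clopper-Pearson 95% interval that covers counting error only. A region was called higher or lower where it differed at least 2-fold and the interval excluded 1. There were no replicates, so no difference has a replicate check. With total counts as the scale, the median region went from a log2 fold of -0.00 to -0.50, and scaling by counts outside the large regions moved it to -0.14, so every fold here is relative to the median region. The basal keratinocyte genes Krt5, Krt14, Trp63, Itga6, Itgb4 and Col17a1 all had regions, 88 in all, with a summed fold of 1.09 (1.05 to 1.13). Regions of the marker lists of other cells also held counts, with summed folds of 0.763 (0.647 to 0.899) for leukocytes, 0.823 (0.735 to 0.921) for fibroblasts and 0.889 (0.832 to 0.9496) for melanocytes. They were 0.860 (0.791 to 0.935) for endothelium, 0.889 (0.839 to 0.943) for hair follicle and 0.873 (0.7996 to 0.952) for suprabasal cells, and Tyr, Lum and Cd3d had no region. Every list held genes on both sides of 1. In the hair follicle list Cd34 was at 1.39 (1.23 to 1.57) and Krt79 at 0.495 (0.399 to 0.610). In the suprabasal list Ivl was at 1.22 (1.02 to 1.48) and Krt10 at 0.598 (0.503 to 0.708). With the trend of fold with count removed, the basal sum was 0.984 and the others lay from 0.811 to 0.851. Levels were 7.03 and 7.64 TMM-scaled CPM per kb in the control and stretched library for basal genes and 5.39 and 4.12 for leukocyte genes. They were 7.22 and 6.42 for hair follicle, 7.10 and 6.31 for melanocyte and 7.02 and 6.13 for suprabasal genes. Fibroblast genes were at 6.66 and 5.48 and endothelial genes at 6.16 and 5.30, so control levels did not set the basal list apart. The part of other cells in the values of the Hippo genes was not tested. A site open in fewer cells and a site less open in each cell cannot be told apart in bulk libraries.

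Over the 104 regions, 7 were called higher and 9 lower, where 7.22% of all regions were called higher and 8.71% lower. The shares of 6.73% and 8.65% were near that background, so the number of calls is not a feature of these genes. The median log2 fold was 0.13, against -0.00 over all regions, with 58 regions above a fold of 1 and 46 below it. The median region of these genes held 85 counts, against 69 over all regions. With the trend of fold with count removed, the median log2 fold was 0.02, against -0.00. The median of 0.13 is therefore not read as a shift of these genes. By role, YAP and TAZ genes had 5 higher and 0 lower among 31 regions, with 4 of the 5 at Yap1. TEAD genes had 1 higher and 4 lower among 39, VGLL genes 1 and 4 among 28, and LATS genes 0 and 1 among 6. These counts are few beside the 7.22% and 8.71% of all regions and are not read as a difference between roles. Summed over each role, the fold was 1.44 (1.35 to 1.54) for the coactivators, 1.15 (1.09 to 1.21) for the VGLL genes, 0.974 (0.922 to 1.03) for the TEAD genes and 0.860 (0.719 to 1.03) for the kinases. In that order, the sums were 1.36, 0.964, 0.868 and 0.874 with the trend of fold with count removed. By total counts they were 1.02, 0.814, 0.689 and 0.608, so the VGLL sum was below 1 under both. With total count scaling Yap1 was at 1.03, Wwtr1 at 1.01, Tead1 at 0.581 and Lats2 at 0.502, and 6 of the 7 higher calls fell short of 2-fold. With counts outside the large regions as the scale, 6 of the 7 stayed called.

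**Figure D1:**
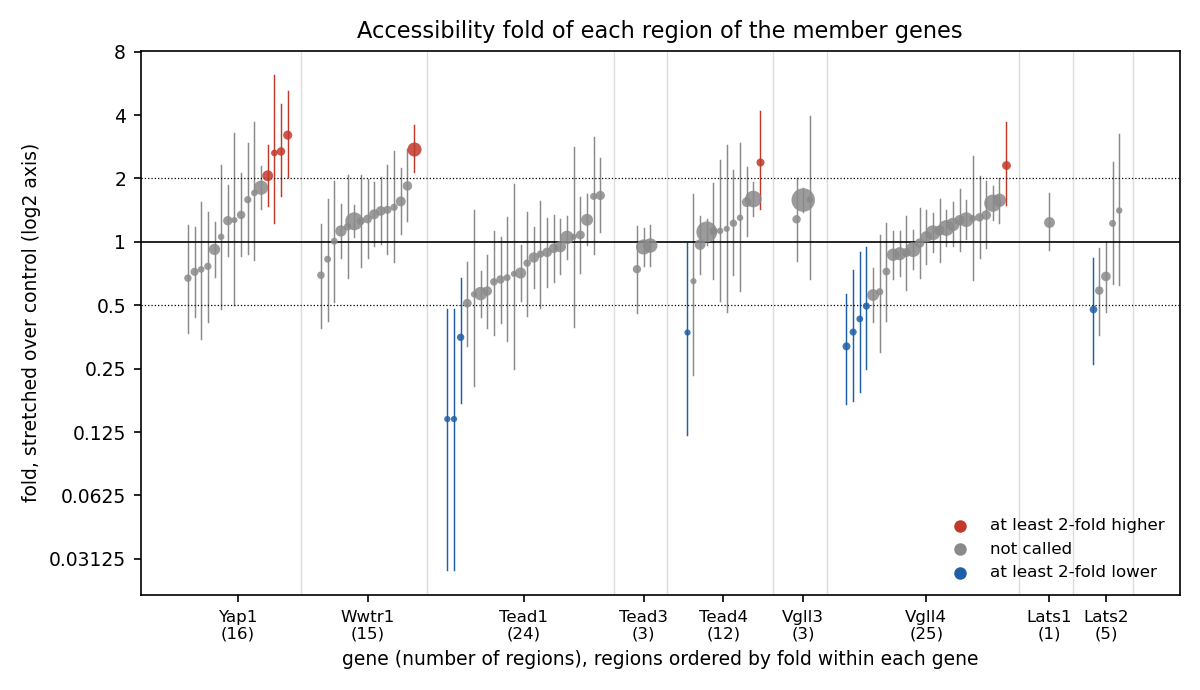
Fold of each of the 104 regions, stretched over control, on a log2 axis, grouped by gene and ordered by fold within it. Dot area grows with the summed count, bars are 95% counting intervals, dotted lines mark 2-fold; red marks the 7 regions called higher, 4 of them at Yap1, and blue the 9 called lower, 4 of them at Vgll4 and 3 at Tead1.

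Yap1, the gene of the coactivator YAP, had 16 regions with 613 control and 846 stretched counts, which is 1.46-fold more (1.31 to 1.62). Its start region, chr9:8003221-8005149, had 121 control and 207 stretched counts and was 1.81-fold higher (1.44 to 2.28), short of the 2-fold limit. Of its 4 regions called higher, 3 lay beyond the far end of the gene. The farthest of these, chr9:7912262-7913293 at 18706 bp past the end, had 26 and 79 counts and a fold of 3.21 (2.04 to 5.21). The authors listed a peak there in the stretched library alone.

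The next region, chr9:7914120-7915150, had 58 and 113 counts (2.06-fold, 1.49 to 2.88), and its fold was 1.98 once the trend of fold with count was removed, which ends the call. The region chr9:7928174-7929185, at 2814 bp past the end, had 24 and 61 counts (2.69-fold, 1.65 to 4.50) and a listed peak in the stretched library alone. Between the calls lies chr9:7923463-7923913, with 10 and 12 counts (1.27, 0.502 to 3.28), so these 4 adjacent regions all had folds above 1. The regions on either side of them, chr9:7906619-7908022 and chr9:7929473-7930158, had folds of 0.720 (0.437 to 1.17) and 0.765 (0.415 to 1.39). The fourth, chr9:7998814-7999146, lay inside the gene 5.62 kb after the start, with 10 and 25 counts (2.64-fold, 1.22 to 6.16) and no listed peak in either library.

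Between its ends Yap1 was less changed. The 8 regions inside the gene that touch no end had a fold of 1.10, and 3 adjacent ones between 13.5 and 38.8 kb after the start had folds of 0.672 to 0.921. The fold at the start was 1.64 times that of these 8 inner regions (counting interval 1.22 to 2.19), a ratio that no scaling of the libraries alters, and 1.32 times with the count trend removed. Inside the span alone the gene's fold was 1.33 (1.16 to 1.52).

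Wwtr1, the gene of the second coactivator TAZ, had 15 regions with 874 control and 1180 stretched counts and a summed fold of 1.43 (1.31 to 1.56). The fold of Yap1 was 1.02 times that of Wwtr1 (0.890 to 1.17), so the sums of the 2 coactivator genes did not differ beyond counting error. Its 1 region called higher, chr3:57500767-57502100, lay inside the gene 74.5 kb after the start, with 88 control and 230 stretched counts and a fold of 2.76 (2.15 to 3.57). It was the largest of the 16 called regions by summed count. The authors listed 2 peaks there in the control, the stronger with a fold enrichment of 9.48 over local background, and 1 in the stretched library with 14.7, the highest fold enrichment of any stretched peak at these 10 genes.

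The start region of Wwtr1, chr3:57574555-57576745, had 249 and 295 counts and a fold of 1.25 (1.05 to 1.49), with an authors' fold enrichment of 10.4 in each list, and a fold of 0.921 with the count trend removed. At Wwtr1 the fold at the start was 0.791 times that of the 11 inner regions (0.644 to 0.972), and 0.604 times with the count trend removed, the opposite order to Yap1. The inner sum of 543 and 813 counts includes the called region, with 88 and 230, and the ratio without that region was not taken. The order is therefore not read as a difference between the 2 genes. The 7 regions from 48.5 to 127 kb after the start all had folds above 1, from 1.13 to 2.76, and without the region of the most counts, the start, the gene's fold was 1.496 (1.35 to 1.66). The 2 regions before the start had 35 and 23 counts and 21 and 20 counts.

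Tead1, which encodes the TEAD protein with the most regions here, had 24 of them with 1391 control and 1082 stretched counts and a summed fold of 0.822 (0.758 to 0.891). No region was called higher and 3 inside the gene were called lower. The region chr7:112762822-112763371 had 39 and 13 counts and a fold of 0.352 (0.173 to 0.674). The regions chr7:112807292-112807822 and chr7:112867935-112868439 had 22 control and 3 stretched counts each, or 0.144-fold (0.028 to 0.480), and the authors listed a peak at each in the control library alone.

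The remaining Tead1 regions ran mostly low as well. The region with the second most counts, chr7:112656002-112656996, lay 22360 bp below the low-coordinate end with 186 and 100 counts, a fold of 0.568 (0.441 to 0.728) that missed the 2-fold limit. The region with the most counts, chr7:112720077-112721146 inside the gene, was equally open, with 145 and 144 counts (1.05, 0.827 to 1.33). The region on the low-coordinate end, chr7:112678336-112680159, stood on the other side, with 98 and 118 counts (1.27, 0.965 to 1.68). Its fold was 1.504 times that of the 19 inner regions (1.12 to 2.02). From just past that end, 7 adjacent regions all had folds below 1, from 0.584 to 0.948. Relative to Tead1, the fold of Yap1 was 1.77 times higher (1.55 to 2.03) and that of Wwtr1 1.74 times (1.54 to 1.96).

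**Figure D2:**
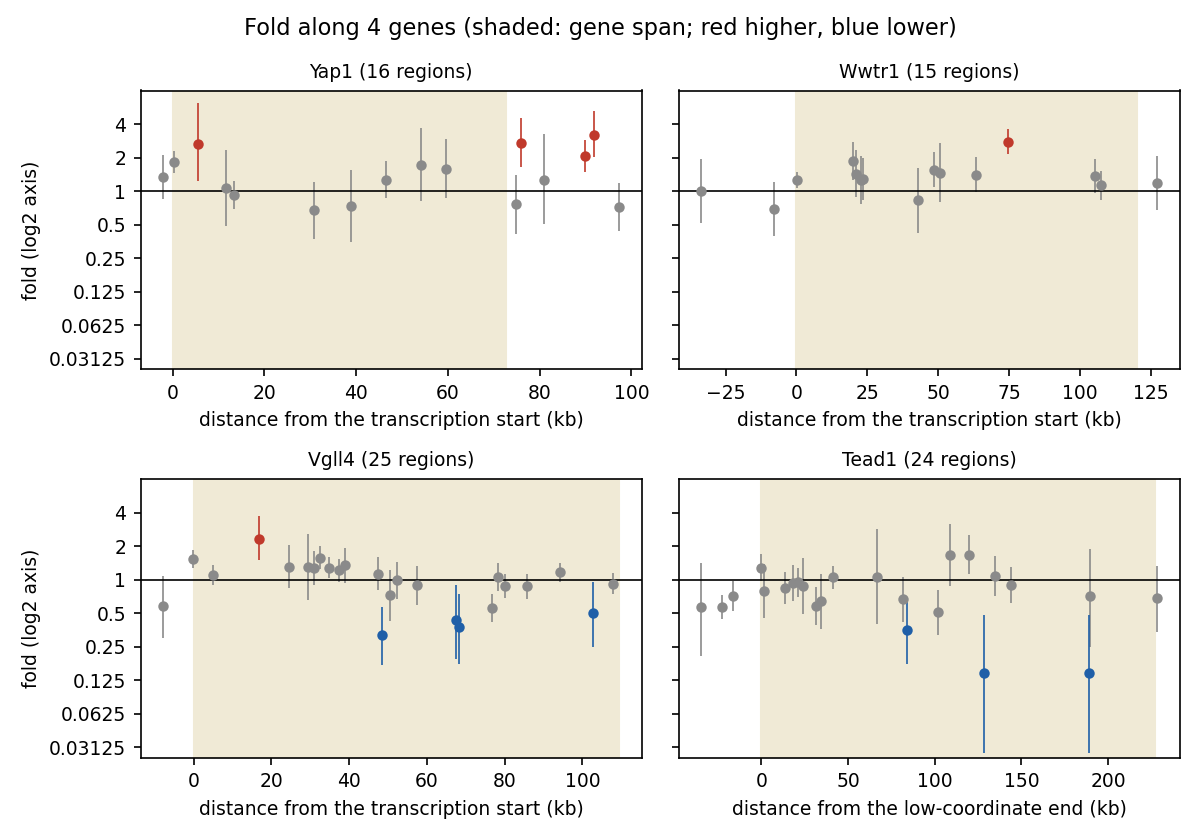
Fold of each region (dots, with 95% counting intervals, log2 axis) against its distance from the transcription start for Yap1, Wwtr1 and Vgll4 and from the low-coordinate end for Tead1, with the gene span shaded. The higher Yap1 regions (red) lie near the start and past the far end, the 11 Vgll4 regions nearest the start and inside the gene are all above 1, and the lower Tead1 regions (blue) lie inside the gene.

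Tead4, another DNA-binding TEAD gene, had 12 regions with 833 control and 986 stretched counts, and its fold of 1.25 (1.14 to 1.37) became 0.884 with total count scaling. The region with the most counts touched the high-coordinate end, chr6:128299695-128301130, with 366 and 386 counts (1.11, 0.963 to 1.29). Inside the gene, chr6:128282061-128282634 had 22 and 50 counts and was called higher (2.40-fold, 1.43 to 4.16), with a listed peak in the stretched library alone. The region chr6:128234077-128234352 had 17 and 6 counts and was called lower (0.373, 0.120 to 0.991), with no listed peak and an interval that almost reached 1. Outside the gene, chr6:128200162-128201526 had 184 and 278 counts (1.60-fold, 1.32 to 1.93). Inside the span alone the fold of Tead4 was 1.15 (1.03 to 1.29). The sum of Tead4 was 1.52 times that of Tead1 in fold (1.34 to 1.72), and 1.29 times with the count trend removed. There Tead4 was at 1.03 (0.937 to 1.13) and Tead1 at 0.799 (0.737 to 0.866), so these 2 TEAD genes did not move alike.

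Tead3 had 3 regions with 422 and 371 counts, a fold of 0.929 (0.806 to 1.07), and none was called. Its start region, chr17:28349840-28351514, had 199 and 178 counts (0.945, 0.768 to 1.16), and chr17:28340536-28341669 inside the gene had 176 and 160. All 3 folds lay between 0.742 and 0.961. With the count trend removed, the summed fold of Tead3 was 0.778 (0.675 to 0.897). It was 0.843 (0.731 to 0.971) by counts outside the large regions and 0.657 (0.570 to 0.757) by total counts. Both of these scales lower every fold. The other regions within 500 kb of Tead3 held 0 higher and 30 lower among 108, with a fold of 0.734 (0.708 to 0.760). The fold of Tead3 was 1.27 times that of these surroundings (1.09 to 1.47), and 1.16 times with the count trend removed.

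Tead2 had a single merged region, chr7:45216881-45217369 inside the gene, with 15 control and 2 stretched counts, 3 counts short of the minimum. A Tead4 region of 3 and 16 counts and a Yap1 region of 8 and 11 counts missed it by 1 count. In all, 11 regions of these genes lay under the minimum, and counting them gave 9 higher and 10 lower among 115.

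Vgll3, a TEAD cofactor gene, had 3 regions with 436 control and 641 stretched counts and a summed fold of 1.55 (1.37 to 1.76), the highest of the 9 genes and within the counting interval of Yap1. Its start region, chr16:65814793-65816153, held 89.9% of these counts, 388 and 580, with a fold of 1.58 (1.39 to 1.80). The gene's value rests on that region, since the other 2 regions gave 1.34 (0.905 to 2.003). With the count trend removed, by which regions of more counts had higher folds across the genome, the fold of Vgll3 was 1.07.

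Vgll4, the gene of a cofactor that competes with YAP for TEAD, had the most regions, 25, with 2295 control and 2334 stretched counts. Its summed fold was 1.07 (1.01 to 1.14), and it was below 1 under 3 other scalings, at 0.760 by total counts, 0.9747 by counts outside the large regions and 0.944 with the trend removed. This near-level sum joined opposite sides of the gene. Split at the middle of the span, the 14 regions on the side of the start had a fold of 1.26 (1.17 to 1.36), with 11 above 1, and the 10 on the far side 0.873 (0.797 to 0.956), with 8 below 1. The ratio of these folds was 1.44 (1.28 to 1.63), independent of library scaling, and 1.45 with the trend removed. This split was chosen after the values were seen.

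The change of side along Vgll4 came between neighbouring regions. From the start to 47.4 kb into the gene, 11 adjacent regions had folds from 1.10 to 2.32, and the next 7, from 48.5 to 76.8 kb, had folds from 0.319 to 0.986. In the first stretch, the start region chr6:114968448-114970251 had 205 and 296 counts (1.53-fold, 1.27 to 1.83), and chr6:114952069-114952927 had 30 and 66 counts and was called higher (2.32-fold, 1.49 to 3.71). In the second, chr6:114920514-114920956 had 53 and 16 counts and was called lower (0.319, 0.170 to 0.567), with a listed peak in the control alone. The adjacent region towards the start, chr6:114921526-114922175, had 70 and 75 counts (1.13, 0.806 to 1.59).

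The other lower calls of Vgll4 had few counts. The regions chr6:114900587-114901189 and chr6:114901485-114901803 had 34 and 12 and 27 and 11 counts, with folds of 0.373 (0.176 to 0.738) and 0.431 (0.193 to 0.897). Near the far end, chr6:114866350-114866866 had 32 and 15 counts (0.495, 0.249 to 0.942), a call lost with the trend removed (0.538). The region with the most counts at the far end, chr6:114860886-114861825, had 191 and 166 counts (0.918, 0.741 to 1.14).

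Lats2, a kinase gene that is itself a known target of YAP, had 5 regions with 201 control and 135 stretched counts and a summed fold of 0.710 (0.566 to 0.887), the lowest of the 9 genes. Its 3 inner regions were all lower. Of these, chr14:57701704-57702467 had 42 and 19 counts and was called lower (0.478, 0.263 to 0.840), chr14:57707058-57708256 had 74 and 48 (0.685, 0.466 to 0.999), and chr14:57730256-57731036 had 54 and 30 (0.587, 0.363 to 0.934). The authors' peaks at the first had a fold enrichment of 5.55 in the control and 3.85 in the stretched list, and at the second 8.83 and 6.12. Together the 3 had a fold of 0.603 (0.465 to 0.778).

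The start of Lats2 is not in that sum and was not called. It lies in chr14:57745168-57746646, with 83 control and 103 stretched counts (1.31, 0.973 to 1.77), which the rule gave to Gm52140, a shorter predicted gene that overlaps it. With all regions of its span, Lats2 had a fold of 0.911 (0.767 to 1.08), and with regions given to the nearest gene end 0.985 (0.817 to 1.19), so its lower sum holds for the inner regions and not for the gene with its start.

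Lats1, the paralogous kinase gene, had 1 region, on its start, chr10:7680404-7682089, with 79 and 93 counts (1.24, 0.912 to 1.70). It also touches the start of Pcmt1, and accessibility of the 2 starts cannot be told apart there. The fold of Lats1 was 1.75 times that of Lats2 (1.19 to 2.58) by the rule, a difference between a start and regions away from one.

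The start regions of Yap1, Wwtr1, Tead3, Vgll3, Vgll4 and Lats1 were compared with starts in general, since start regions differed from others across the genome. None of the 6 was called, where 9.88% of 10368 regions on a RefSeq start were called higher and 2.15% lower. Their folds ran from 0.945 at Tead3 to 1.81 at Yap1, with 5 of 6 above 1. The median log2 fold was 0.47, against 0.31 over all start regions and 0.08 over the 98 regions of these genes that touch no start. At the median, the 6 start regions also held more counts than all start regions. With the count trend removed, their summed fold was 1.04, against 1.07 over all start regions. The higher median is therefore not read as a difference from starts in general.

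Of the 9 genes, 7 lay on the same side of 1 as the other regions within 500 kb of them, and the exceptions were Vgll4 and Lats2. This count depends on the scaling: by total counts Vgll4 (0.760 against 0.649) and Lats2 (0.502 against 0.802) were on the same side as their surroundings and Wwtr1 (1.01 against 0.968) was not, and Vgll4 was on the same side with the trend removed (0.944 against 0.899) and by counts outside the large regions (0.9747 against 0.833). The other regions around Yap1 had a fold of 1.46 (1.38 to 1.54), around Wwtr1 1.37 (1.28 to 1.47), around Vgll3 1.52 (1.34 to 1.73) and around Tead1 0.799 (0.768 to 0.831). Against these surroundings the fold of Yap1 was 1.001 times (0.890 to 1.13), of Wwtr1 1.04 times (0.932 to 1.17), of Vgll3 1.02 times (0.854 to 1.22) and of Tead1 1.03 times (0.941 to 1.13). The intervals of these 4 ratios include 1, as do those of Tead4 and Lats1. Vgll4 was 1.17 times its surroundings (1.08 to 1.27), and Lats2 without its start was 0.626 times (0.496 to 0.787). With the trend removed, the ratio was 0.781 for Vgll3, 1.05 for Vgll4 and 0.706 for Lats2.

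**Figure D3:**
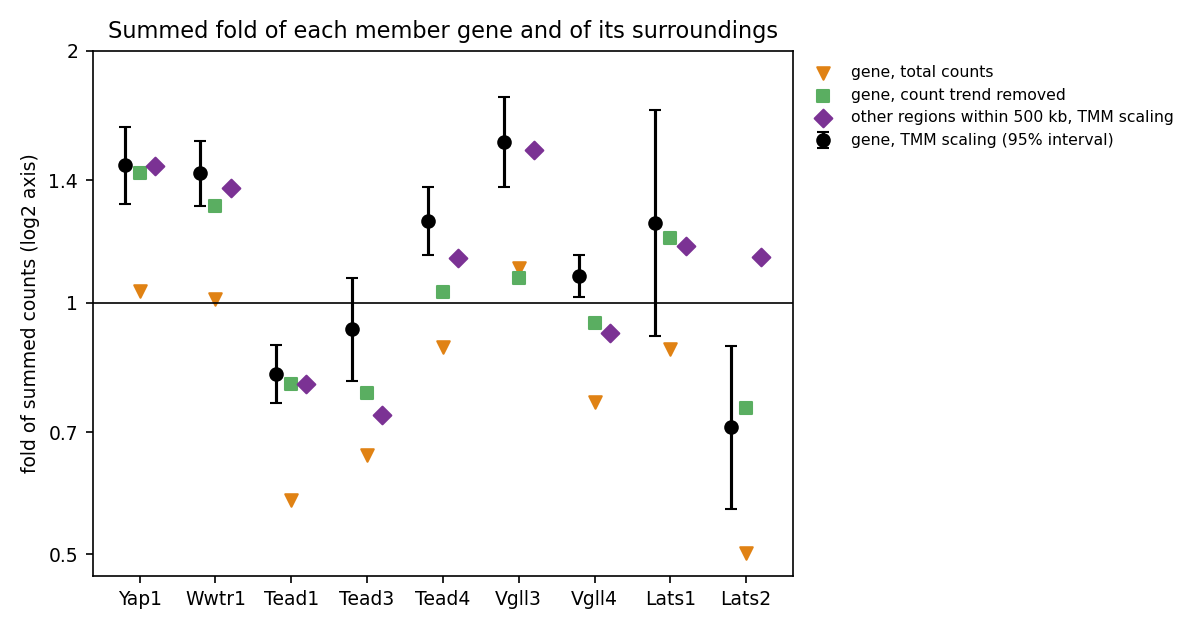
Fold of the summed counts of each gene (log2 axis) with TMM scaling and 95% counting interval (black), by total counts (triangles), with the count trend removed (squares), and of the other regions within 500 kb (diamonds). Yap1, Wwtr1, Vgll3 and Tead1 sit beside their diamonds, Lats2 lies below its own (0.710 against 1.13), and total count scaling puts Tead4 (0.884) and Vgll4 (0.760) below 1.

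Levels were compared per kb of region, in TMM-scaled CPM per kb. In the control library Vgll3 was the most accessible at 17.5, then Tead3 at 12.4, Vgll4 at 10.5, Tead4 at 9.84, Tead1 at 6.74, Wwtr1 at 6.37, Lats2 at 4.85, Lats1 at 4.47 and Yap1 at 4.15. The rank of Vgll3 rests on its start region, at 27.2, since its other 2 regions were at 3.52 and 4.91. The Poisson intervals overlapped between Vgll4 and Tead4, between Tead1 and Wwtr1, and among Lats2, Lats1 and Yap1. In the stretched library Vgll3 was at 27.2, Tead4 at 12.3, Tead3 at 11.5, Vgll4 at 11.3, Wwtr1 at 9.09, Yap1 at 6.05, Lats1 at 5.56, Tead1 at 5.54 and Lats2 at 3.44. Wwtr1 thus passed Tead1, while Vgll3 was first in both libraries. In the stretched library the intervals overlapped among Tead4, Tead3 and Vgll4 and among Yap1, Lats1 and Tead1. The median region of these genes was at 5.85 and 6.31, and the median of all regions at 5.33 and 5.02.

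**Figure D4:**
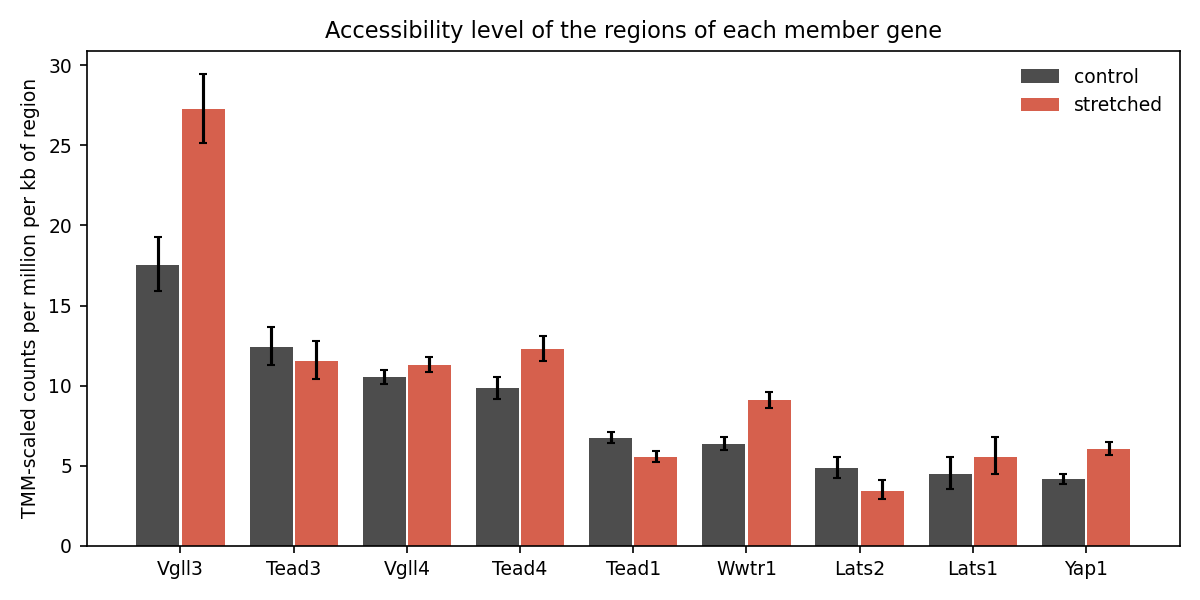
TMM-scaled CPM per kb of region for each gene in the control (grey) and stretched (red) library, with Poisson 95% intervals, ordered by the control level. Vgll3 is highest in both (17.5 and 27.2), and Yap1 and Wwtr1 are higher in the stretched library while Tead1 and Lats2 are lower.

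The authors called peaks on each library alone. At these genes they listed 87 control peaks, of which 86.2% shared at least 1 bp with a stretched peak, and 82 stretched peaks, of which 85.4% shared 1 with a control peak. The shares over all peaks were 84.5% and 78.4%. Of the 104 regions, 68 (65.4%) held a listed peak in both libraries, against 60.2% of all regions. A peak in the control alone was listed in 12 regions (11.5%, against 9.33% of all regions). A peak in the stretched library alone was listed in 11 (10.6%, against 14.9%). The remaining 13 (12.5%, against 15.6%) held no listed peak, and 4 of the 16 calls fall there. The share of calls in regions without a listed peak was not taken over all regions.

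Lower calls were more frequent in regions of few counts, at these genes as over all regions. Of the 27 regions with 20 to 49 counts, 1 was called higher and 6 lower, where 8.78% and 13.4% of all such regions were called. Of the 30 with 50 to 99 counts, 3 were higher and 3 lower, where 6.57% and 10.5% of all such regions were. Of the 26 with 100 to 199 counts 2 were higher and 0 lower (4.66% and 4.53% over all regions), and of the 21 with at least 200 counts 1 was higher and 0 lower (7.82% and 1.03%). At 3 counts in a library, as in 2 lower Tead1 regions, the interval of the fold spans from 0.028 to 0.480.

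Other genes of the pathway were described from lists, to be read against the 7.22% higher and 8.71% lower of all regions. The Hippo kinases and scaffolds, 14 genes such as Stk3 and Sav1 upstream of LATS, had 3 higher and 10 lower among 129 regions and a median log2 fold of -0.10. In that list Frmd6, a scaffold gene, had 0 higher and 3 lower of 22 regions with a summed fold of 1.001 (0.923 to 1.08), and Map4k4, a kinase gene, 0 and 2 of 25 (0.923, 0.865 to 0.985). The 10 junction and LIM-domain regulators of YAP had 12 higher and 14 lower among 179, with a median of 0.05. Pard3, a polarity gene, had 5 higher and 6 lower of 66 regions (1.03, 0.979 to 1.08), and Ptpn14, a phosphatase gene that restrains YAP, 1 and 5 of 34 (0.876, 0.830 to 0.924).

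The 6 atypical cadherins, giant adhesion receptors upstream of the pathway, had 4 higher and 3 lower among 49 regions and a median of 0.24. Fat1 had 2 higher and 0 lower of 19 regions (1.44, 1.32 to 1.56), and Fat2 2 and 1 of 18 (1.05, 0.969 to 1.13). The other VGLL genes were Vgll1, with no region, and Vgll2, whose 2 regions were both called higher, with 33 control and 119 stretched counts in sum (3.81-fold, 2.57 to 5.79). The 16 genes listed as YAP-TEAD targets had 11 higher and 9 lower among 164 regions and a median of 0.08. Among them Ccn1, a secreted matrix protein gene and common YAP readout, had 3 higher and 0 lower of 13 (1.43, 1.30 to 1.57). Other common readouts had no called region, with summed folds of 0.871 (0.722 to 1.05) at Ccn2, 0.862 (0.588 to 1.26) at Ankrd1 and 0.920 (0.777 to 1.09) at Axl. The list includes Lats2, and Ptpn14, Amotl2 and Ajuba are also in the regulator list. Without the genes described above, the lists held 44 genes and 465 regions, 30 of them higher and 29 lower, with a median log2 fold of 0.06, calls near or below the share over all regions.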

How the data were processed

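ATAC-seq libraries of 1 control and 1 stretched mouse were analysed, grouped by the treatment label. Tools named by the submitters' processing notes are HTSeq, Picard, SAMtools, MACS2 2.1.0.20151222 and Bowtie2 2.2.6, with GRCm38 as the build. Per the file headers, the authors called peaks with MACS2 on each library alone at a q cutoff of 0.05 from 31944854 control and 23876613 stretched fragments. The deposited counts are raw counts over the same merged regions. How they were counted, and whether duplicates were removed, was not given in the labels or headers. The deposited pileup is a signal in fragments at a summit, the deposited -log10 p and -log10 q compare a peak with its local background, as does the deposited ratio called fold enrichment, and only the fold enrichment is printed.

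The members and the lists were chosen with earlier results of these data known. Counts were scaled with TMM (edgeR 4.0.16, R 4.3.3). No test was run, since each group is 1 library, and a region was called by a fold of at least 2 and an exact Clopper-Pearson 95% interval excluding 1. Intervals cover counting error only, since reads without molecular identifiers are not independent molecules. A ratio of 2 folds has the exact conditional interval of an odds ratio. The trend was a lowess fit of log2 fold on count. Named regions are every called region, that with the most counts and those on an end of each gene, and of each list the 2 genes with the most called regions, the one with more counts on ties. Other regions, and other members of the lists, were named after their values were seen. Strand and starts came from the promoter table, so Tead1 and Tead4 are described by their coordinate ends, and exons and introns were not used here. The calling rule was tested on simulated data. Alternatives used DESeq2 1.42.0 size factors, total counts, counts outside the large regions, and other limits and assignments. Other steps used Python 3.11.15, pandas 2.3.3, scipy 1.17.1, statsmodels 0.14.6 and matplotlib 3.10.9.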

Additional observations from a re-analysis of the deposited data

How the results depend on the processing

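Scaling by total counts gave 1 member region higher and 21 lower with a median log2 fold of -0.37, and 5 higher and 84 lower for the pathway lists. It turned Tead4 to 0.884 and Vgll4 to 0.760. Scaling by counts outside the large regions turned Vgll4 to 0.9747 and left 17 list regions higher. Removing the count trend turned Vgll4 to 0.944. A minimum of 50 counts gave 3 member regions lower, and 17 list regions higher and 13 lower. A fold limit of 1.5 gave 16 higher and 14 lower member regions and 52 and 45 in the lists. Regions inside the span alone gave 4 member and 19 list regions higher, and assignment to the nearest gene end gave 17 list regions lower. Requiring 50% overlap put shared peaks at 67.8% of the control list and 72.0% of the stretched list. Where a fold limit, a count minimum or an overlap was altered, the counts moved by construction, and otherwise the cause was not tested. DESeq2 size factors kept all 16 called regions. Scaling by total counts lowered every fold, so no lower call could be lost by it. It kept 9 of 9 lower and 1 of 7 higher calls. The trend removal and the 99% interval each kept 6 higher and 6 lower calls.

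Giving each gene every region of its span, and leaving out each gene's region of most counts, were chosen after seeing the data. They left 7 higher and 9 lower calls, which was fixed in advance, since no region added or left out was a called one. Leaving out a replicate was not possible with 1 library per group. No paired analysis was possible because each group has 1 library. Depth limits the small regions most: 27 of the 104 regions held under 50 counts.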
